A study of Rattus norvegicus with 12 samples.

Results

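Zbtb16 and Spon2 were followed in the lungs of 12 rats. Both genes are listed in the study's table of genes differing between silica and saline lung on day 28, and they were picked from it as strong fallers with earlier results of all 12 arrays known. Their lower signal in silica lung is thus part of how they were chosen. The table assigned 1 probe to each gene, which gave 2 genes out of 1097 that could be named, and 2 probes out of 1275 named and 51255 on the array. The copy of the table that was read held 1279 of its 2275 rows, so further probes of either gene were not looked for. All rats were male Wistar rats that had received 1 mL of liquid through the trachea. The model groups received silicon dioxide at 50 mg/mL and the control groups received saline, and 3 rats of each group were measured. The study's methods describe larger groups, out of which 3 lungs each were picked for the arrays by their histological changes. The lungs were labelled as taken on day 14 or on day 28. For the rats of day 14 the titles and time point give day 14, whereas the description and protocol text give day 28, and the study's methods describe no rats of day 14. The titles also state the dose as 50 mg/kg. The age of the rats was not given in the labels.

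Zbtb16, also called PLZF, is a transcription factor of the BTB zinc finger family. Its BTB domain recruits corepressors and histone deacetylases, and its zinc fingers bind DNA. It is known for keeping germline stem cells undifferentiated, for the development of innate-like T lymphocytes and for its strong induction by glucocorticoids in many cell types. Spon2, also called mindin, is a secreted matrix protein with a thrombospondin type 1 repeat. It binds lipopolysaccharide and leukocyte integrins and takes part in innate immune responses.

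The probe sequences are printed because every value below is what bound to them. Both are 60 bases long with a GC content of 55.0%, and each was spotted once on the array. Capitals mark the longest runs that also occur in another probe of the array, on either strand. Runs that overlap or touch are marked as 1 stretch, so the capitals in the Zbtb16 probe are longer than any shared run. In the Zbtb16 probe, 2 other probes share such a run of 14 bases. In the Spon2 probe, 1 other probe shares a run of 15 bases. No probe of the array overlapped either by 30 bases or more.
Zbtb16: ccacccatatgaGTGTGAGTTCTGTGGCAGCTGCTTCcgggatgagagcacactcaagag
Spon2: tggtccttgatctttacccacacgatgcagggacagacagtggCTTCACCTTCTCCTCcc
The Zbtb16 probe carries the transcript NM_001013181 on chromosome 8 and the Spon2 probe carries NM_138533 on chromosome 14, and both accessions have the same symbol in RefSeq (assembly GRCr8).

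Signals are log2 values of the processed intensity after quantile normalization over the 12 arrays. A value 1 higher means 2 times the signal on the same probe. Levels of the 2 probes are not set against each other, since probes differ in how strongly they bind. On each of the 12 arrays both probes were well above background, and none was saturated. Of all probes, 60.5% to 69.5% were well above background on an array. Arrays of 1 group correlated with each other at 0.966 to 0.989. The 6 arrays of day 14 shared slide 2 with saline replicates 2 and 3 of day 28, and the remaining 4 arrays, all of day 28, were on slide 1. Nothing in the labels beyond the replicate numbers says how the rats were kept apart, and the p-values measure the spread between these samples. By the study's methods, rats shared cages within a group. For the rats they describe, cage and treatment therefore cannot be told apart.

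In lungs of day 14, Zbtb16 was downregulated in the model group. These rats had no part in the study's table of day 28, but their results were known when the 2 genes were picked, so the tests of day 14 are not independent of that choice. Its signal was 8.88, 7.95 and 8.85 in saline replicates 1, 2 and 3. In the silica replicates it was 6.15, 5.77 and 5.76. All silica arrays lay below all saline arrays, with a gap of 1.81 between the highest silica and the lowest saline array. The group means were 5.89 ± 0.22 (SD, n = 3) in silica and 8.56 ± 0.53 (SD, n = 3) in saline. The log2 fold change was -2.67 (SE 0.27, 95% confidence interval -3.30 to -2.04), a signal 6.35-fold lower with an interval of 4.11 to 9.83, and limma gave an adjusted p of 0.005 over all 33615 probes tested. Only 11 of those probes had a lower log2 fold change. On the scale of the scanner the processed intensity was 254 to 550 in saline and 52.1 to 61.8 in silica, over a local background of 24 to 28. The silica signal stood at percentiles 53.8 to 58.2 of all probes on its arrays. Normexp background correction, which here adds an offset of 50, gave a log2 fold change of -1.89 (adjusted p = 0.00413).

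Spon2 was also downregulated on day 14, but with a wide spread within the model group. Its signal was 11.57, 11.87 and 11.72 in the saline replicates. The silica replicates gave 8.004, 9.90 and 9.84. Silica replicate 1 stood 1.84 below the next array, and the groups were nevertheless separated by a gap of 1.67. The means were 9.25 ± 1.08 (SD, n = 3) in silica and 11.72 ± 0.15 (SD, n = 3) in saline. The log2 fold change was -2.47 (SE 0.48, 95% confidence interval -3.58 to -1.36), a signal 5.54-fold lower with an interval of 2.56 to 12, and limma gave an adjusted p of 0.0265. The call was kept without silica replicate 1, at a log2 fold change of -1.85 (adjusted p = 0.00524). It was lost without any 1 of the saline replicates, where the adjusted p was 0.0789 to 0.101 at log2 fold changes of -2.55 to -2.40, and when dim probes were not filtered out, where it was 0.0903.

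Both genes were therefore called lower on day 14, where a call needs a change of at least 2-fold and an adjusted p up to 0.05. Among all probes tested, 2.34% were called lower and 2.65% higher. Every silica array lay below every saline array for 18.9% of the probes, so the separation alone is shared with many others. An exact two-sided permutation test over the 6 rats gave p = 0.1 for each gene, which is the smallest p that 3 against 3 rats allow. The tissue was whole lung, where fewer cells of a type and less RNA per cell cannot be told apart.

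**Figure D1:**
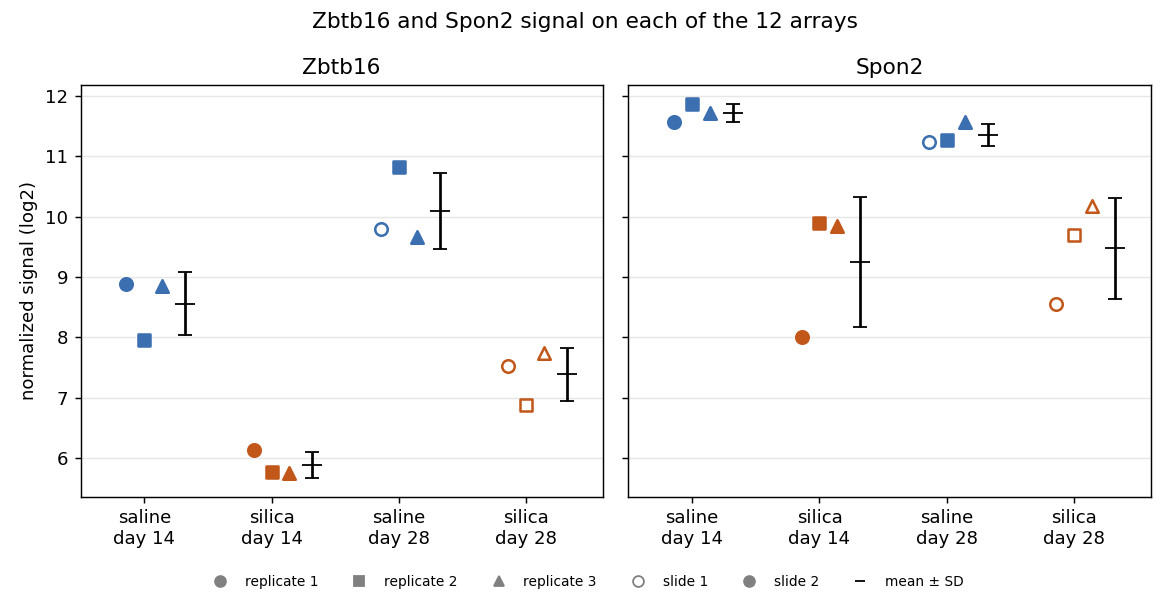
Normalized log2 signal (vertical axis) of the Zbtb16 probe (left) and the Spon2 probe (right) on each array, by group; bars to the right of the points give the mean and SD of 3 rats, the marker shape gives the replicate number, and open markers are arrays of slide 1. Silica arrays lie below the saline arrays of the same day for both genes, Zbtb16 sits higher on day 28 than on day 14 in both treatments, and the silica arrays of Spon2 spread from 8.004 to 10.18.

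**Figure D2:**
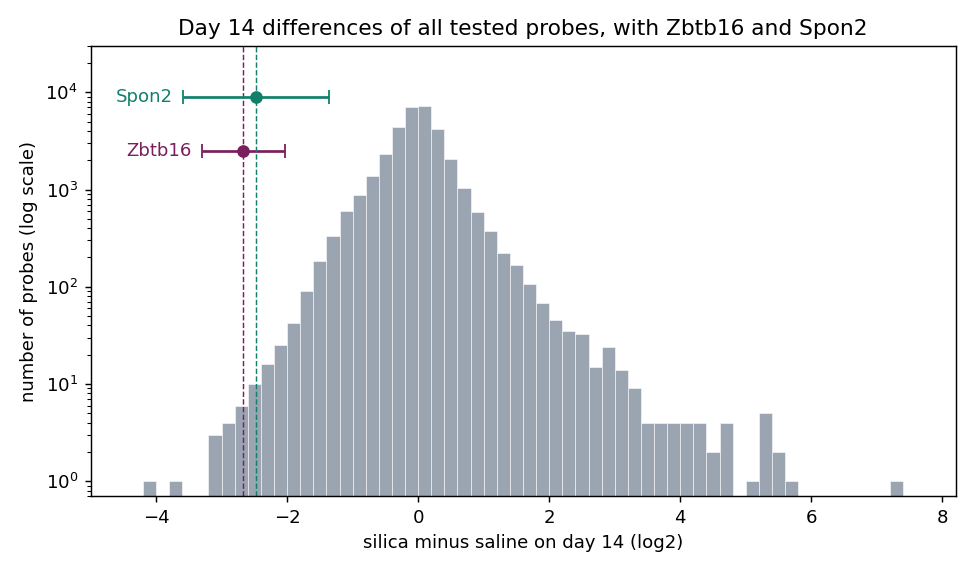
Number of probes (vertical log axis) by silica minus saline difference on day 14 (log2, bins of 0.2) for the 33615 probes tested; dots and bars give the estimates and 95% confidence intervals of Zbtb16 and Spon2, whose height on the plot has no meaning. Both genes lie in the thin left tail, with 11 probes below Zbtb16 and 20 below Spon2.

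The values of day 28 are given as a description without a test, because the genes were chosen on that contrast. Zbtb16 was 9.80, 10.82 and 9.66 in the saline replicates and 7.54, 6.89 and 7.74 in the silica replicates. The means were 10.09 ± 0.63 (SD, n = 3) and 7.39 ± 0.44 (SD, n = 3), a log2 difference of -2.70 or 6.51-fold. The groups did not overlap, and the gap between them was 1.92. Spon2 was 11.23, 11.27 and 11.56 in saline and 8.56, 9.69 and 10.18 in silica. Its means were 11.35 ± 0.18 (SD, n = 3) and 9.47 ± 0.83 (SD, n = 3), a log2 difference of -1.88 or 3.68-fold, with a gap of 1.05. On day 28 as a whole, 4.64% of 32097 probes were called lower and 24.2% had all silica arrays below all saline arrays. Treatment and slide overlapped on that day. Within slide 1, where saline replicate 1 was the only control, the log2 difference was -2.41 for Zbtb16 and -1.76 for Spon2.

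Set beside each other, the fall of Zbtb16 was of like size on both days, at log2 differences of -2.67 and -2.70. The difference between them was -0.03 and took both signs, from -0.46 to 0.33, over the processing settings and arrays left out. For Spon2 the fall was smaller on day 28 by 0.59 on the log2 scale, and this ranged from -0.03 without silica replicate 1 of day 14 to 1.05 without silica replicate 1 of day 28. Neither difference was tested.

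Zbtb16 differed from Spon2 in its level between days. The saline lungs of day 28 were higher than those of day 14 by 1.53 on the log2 scale for Zbtb16, or 2.89-fold, and the groups did not overlap, as for 10.9% of 34097 probes. The silica lungs were higher on day 28 by 1.50, or 2.82-fold, again with no overlap, as for 18.6% of the probes. The result was that silica lung of day 28 and saline lung of day 14 lay next to each other in the order of the 4 groups, from silica day 14 at 5.89 through silica day 28 at 7.39 and saline day 14 at 8.56 to saline day 28 at 10.09. No neighbours in this order overlapped. The highest silica array of day 28, at 7.74, was 0.21 below the lowest saline array of day 14, at 7.95, and 28.7% of all probes had these groups apart in that direction. Within slide 2 alone, saline replicates 2 and 3 of day 28 stood 1.68 above the saline arrays of day 14. The silica arrays of the days were on different slides, so day and slide cannot be told apart there. Few probes showed a difference of this size. Of all probes, 0.088% were higher on day 28 by more than Zbtb16 in saline and 0.179% in silica, and 18 probes (0.0528%) were at least 2-fold higher on day 28 in both. The median probe differed by 0.00 in saline and 0.04 in silica. Of those 18 probes, 3 could be named: Zbtb16, Mcpt1l1, which belongs to the mast cell proteases, and RGD1566226. The other 2 were named after their values were seen, and RGD1566226 was well above background on only 2 of the 3 silica arrays of day 28 and 1 of the 3 of day 14.

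Spon2 showed no such difference. Saline lungs were lower on day 28 by 0.37 on the log2 scale, with the highest array of day 28 at 11.56 and the lowest of day 14 at 11.57; 7.94% of the probes had all day 28 arrays below all day 14 arrays. Silica lungs were higher on day 28 by 0.23, with overlapping arrays. In the order of its levels, silica day 14 at 9.25 and silica day 28 at 9.47 overlapped, and saline day 28 at 11.35 and saline day 14 at 11.72 were separated by 0.0033. Spon2 varied widely within the model groups. The SD of the silica arrays was 7.13 times that of the saline arrays on day 14 and 4.58 times on day 28. Ratios at least as large were seen for 3.72% of the probes on day 14 and 4.25% on day 28, while the median ratio was 1.28 and 0.805. For Zbtb16 the ratios were 0.415 and 0.704.

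Among 1095 other named genes, the pattern over the 12 arrays nearest to that of Spon2 belonged to Sec14l3, a lipid-binding protein of the SEC14 family. Likeness was measured as the root mean square difference of the log2 signals after each gene was centred on its own mean, and it was 0.22 for Sec14l3 against a spread of 1.23 for Spon2 itself. Plvap followed at 0.26, the protein of the diaphragms of endothelial caveolae and fenestrae. Vipr1, a receptor for vasoactive intestinal peptide, followed at 0.37. Car4, a membrane-bound carbonic anhydrase found on lung capillaries, came next at 0.38, and Pcp4l1 at 0.39. Sec14l3, Plvap, Vipr1 and Car4 shared the low arrays of Spon2 on both days, and Pcp4l1 did so on day 14 only. Relative to their own means, Sec14l3 was at -2.35 in silica replicate 1 of day 14 and at -2.05 in silica replicate 1 of day 28, Plvap at -2.03 and -1.86, Vipr1 at -2.20 and -1.96 and Car4 at -1.82 and -1.47. On the other silica arrays these 4 genes lay between -0.79 and -0.22. Pcp4l1 was well above background on only 1 silica array of each day, and it dropped to rank 323 with normexp correction, whereas the other 4 kept ranks 1 to 4.

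The likeness to Zbtb16 was looser. RGD1566226, which RefSeq names Sirpb3, was nearest at 0.76 against a spread of 1.59 for Zbtb16 itself. Spock3 at 0.82, Mapt at 0.82, Clstn2 at 0.87 and Fam180a at 0.88 followed. Mapt encodes the microtubule protein tau, Spock3 a proteoglycan of the testican family and Clstn2 a calsyntenin. Spock3, Mapt and Fam180a were not well above background on any silica array, and they fell to ranks 355, 330 and 401 with normexp correction. RGD1566226 kept rank 1, though it was dim on silica arrays as given above, and Clstn2 moved to rank 7. Spon2 was at 1.14 from Zbtb16, rank 201 of 1096. All named genes come from the same table of day 28, of which 1279 of 2275 rows were read. These neighbours are thus nearest only among the genes in those rows, which differed on that day.

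**Figure D3:**
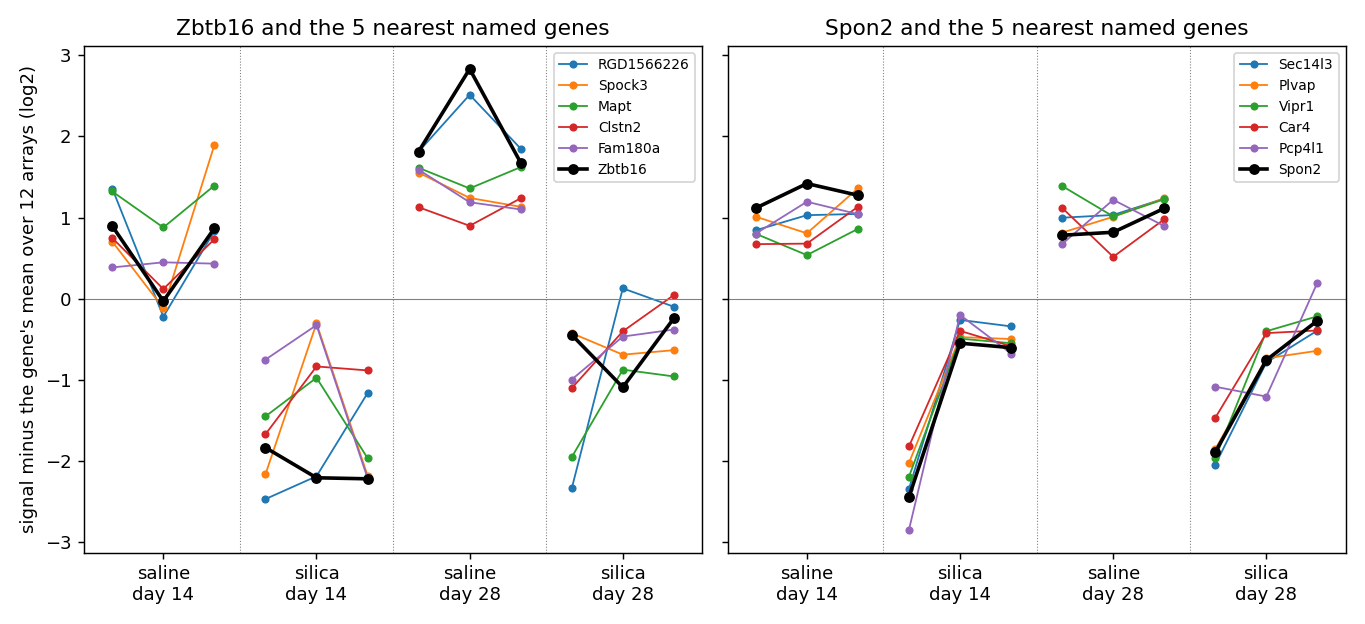
Log2 signal minus the gene's own mean over the 12 arrays (vertical axis) for Zbtb16 (left, black) and Spon2 (right, black) and the 5 named genes nearest to each in colour; within a group the points are replicates 1, 2 and 3 and the lines only help to trace a gene. The neighbours of Spon2 are lowest with it on replicate 1 of both silica groups, except Pcp4l1 on day 28, while those of Zbtb16 follow it less closely.

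Genes related to these 2 by family, regulation or function were compared on day 14 in lists of named genes. Since every named gene had been called on day 28 by the study, high shares of calls are built in: of 1061 named genes tested on day 14, 16.2% were called lower and 24.9% higher, with a median log2 difference of 0.37 against -0.01 for all probes. For the BTB zinc finger family and its corepressors, 2 of 28 listed genes had a named probe. Patz1, another BTB zinc finger repressor, was called lower at -1.02 (adjusted p = 0.0237). Zbtb46, a factor of dendritic and endothelial cells, was at -0.74 (adjusted p = 0.0307) and missed the 2-fold limit. The median of the 2 was -0.88. The single call was lost with normexp correction, without the filter on dim probes, with the replicate block and without each array of day 14 except silica replicate 2. Of 22 genes known to be induced by glucocorticoids, as Zbtb16 is, 4 had a named probe. None of the 4 was called by limma, with a median of 0.75, while 2 had an unadjusted p under 0.05. The count called higher was 1 when all 12 arrays entered the fit, and also 1 with the replicate block. Klf9, a transcription factor that responds to glucocorticoid, was at -0.71 (adjusted p = 0.0332). Mt1a, a metallothionein, was at 1.04, Angptl4 at 0.95 and the kinase Sgk1 at 0.56, with adjusted p from 0.0856 to 0.293. The 4 genes thus lay on both sides of 0.

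For proteins with thrombospondin repeats, the domain that Spon2 carries, 7 of 36 listed genes were tested, with 1 called higher, 1 called lower and a median of -0.87. The count of lower calls was 4 without silica replicate 2 and 0 without any other array of day 14 or without the filter on dim probes, while the count of higher calls was 1 in each of these. Thbs2, a matrix thrombospondin, rose by 3.16 (adjusted p = 0.005). Thsd1, a membrane protein of endothelial cells, fell by 1.15 on the log2 scale (adjusted p = 0.0266). Adamtsl4 at -0.93 (adjusted p = 0.0304) missed the 2-fold limit, and Ism1 was at -0.92 (adjusted p = 0.0679). Spon2 is known to bind lipopolysaccharide and leukocyte integrins. The list for lipopolysaccharide recognition and leukocyte integrins is not one of its binding partners, since it also holds genes such as Cd14, Ikbke and Tnf. Of 14 listed, 7 were tested, 4 were called higher, none was called lower and the median was 1.07. The count of 4 became 1 without saline replicate 2, and 2 without saline replicate 3, with normexp correction or without the filter. Itgam, the alpha chain of complement receptor 3, rose by 3.44 (adjusted p = 0.00814). Cd14, a coreceptor for lipopolysaccharide, rose by 1.86 (adjusted p = 0.0236) and Tnf, a cytokine released on such stimulation, by 1.59 (adjusted p = 0.00645). Itgb2, the beta chain that pairs with Itgam and is named for that reason, was at 0.98 (adjusted p = 0.0436), under the 2-fold limit. All 7 thus lay above 0 while Spon2 lay below it.

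Markers of lung cell types moved on the same arrays. Of 11 endothelial markers, 7 were tested and 5 were called lower on day 14, with a median of -1.32. Plvap fell by 2.06 on the log2 scale (adjusted p = 0.0286), Ramp2 fell by 1.54 (adjusted p = 0.0312) and Tek fell by 1.45 (adjusted p = 0.0411). No endothelial marker remained called when any 1 of the saline arrays was left out or dim probes were kept, and 1 was called without silica replicate 3. The mean log2 signal of the 7 markers was 11.43 to 11.66 in saline and 9.52, 10.67 and 10.45 in silica replicates 1, 2 and 3 of day 14. On day 28 it was 11.65 to 11.88 in saline and 9.69, 10.44 and 10.61 in silica. The lowest array of each silica group, replicate 1, was also the lowest for Spon2 on both days. Plvap, 1 of the 7 markers, was picked above as a neighbour of Spon2 on these same arrays, so this likeness is partly built in. The fall of the markers on day 28 is built in too, since all 7 were named from the table of that day. For Zbtb16 replicate 1 was the highest silica array on day 14 and in the middle on day 28. Of 9 alveolar epithelial markers 2 were tested and neither was called, though both had an unadjusted p under 0.05. They were well above background on every array, with Rtkn2 at -1.42 (adjusted p = 0.0505) and the water channel Aqp5 at -0.93 (adjusted p = 0.145). Their mean was 11.42 to 11.74 in saline of day 14 and 9.55, 10.80 and 10.89 in the silica replicates, again lowest in replicate 1. Of the 2 alveolar markers, 1 was called lower under 4 of 9 other settings and without silica replicate 2.

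Macrophage markers went the other way. Of 10, 5 were tested and 4 were called higher, with a median of 2.82, and the macrophage receptor Trem2 rose by 4.25 (adjusted p = 0.00219). Their mean was 8.26 to 8.97 in saline and 11.03 to 11.93 in silica of day 14, with replicate 1 highest. None of the 3 fibroblast and smooth muscle markers tested, of 12, was called, 1 had an unadjusted p under 0.05, and their median was 0.45. Col1a1 was at 0.59 and Lum at 0.45, while Tagln was at -0.76. The single T and NK lymphocyte marker tested, Cxcr3, was at 1.04 (adjusted p = 0.125), and no neutrophil marker had a named probe. The fibroblast and smooth muscle mean was 10.11, 9.47 and 9.15 in silica replicates 1, 2 and 3 of day 14, and Cxcr3 was 7.88, 6.62 and 6.41. The means of the endothelial and alveolar markers thus had their lowest silica level on the array where Spon2 was lowest. Cxcr3 and the means of the other lists, macrophage and fibroblast and smooth muscle, had their highest there. The fibroblast and smooth muscle mean covers genes on both sides of 0, so it does not stand for each of them. Replicate 1 was at an extreme for each of these lists on both days, so this is not particular to any of them. The part of cell composition in the falls of Spon2 and Zbtb16 was not tested.

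**Figure D4:**
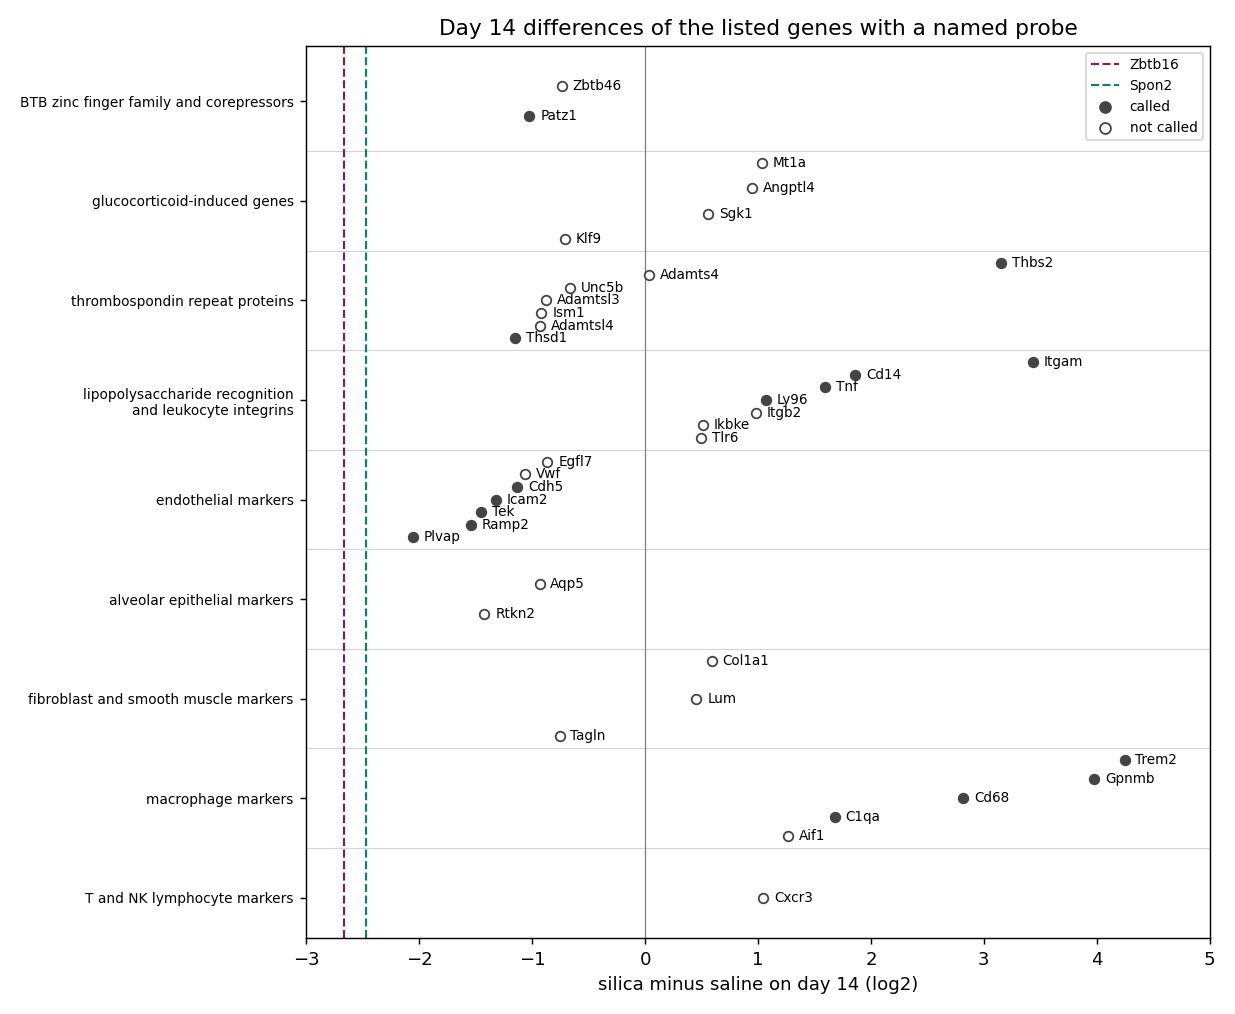
Silica minus saline difference on day 14 (log2, horizontal axis) of each listed gene with a named probe, in rows by list, with filled points for called genes; vertical dashed lines mark Zbtb16 at -2.67 and Spon2 at -2.47. Both genes lie further left than every listed gene, the lowest of which is Plvap at -2.06.

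**Figure D5:**
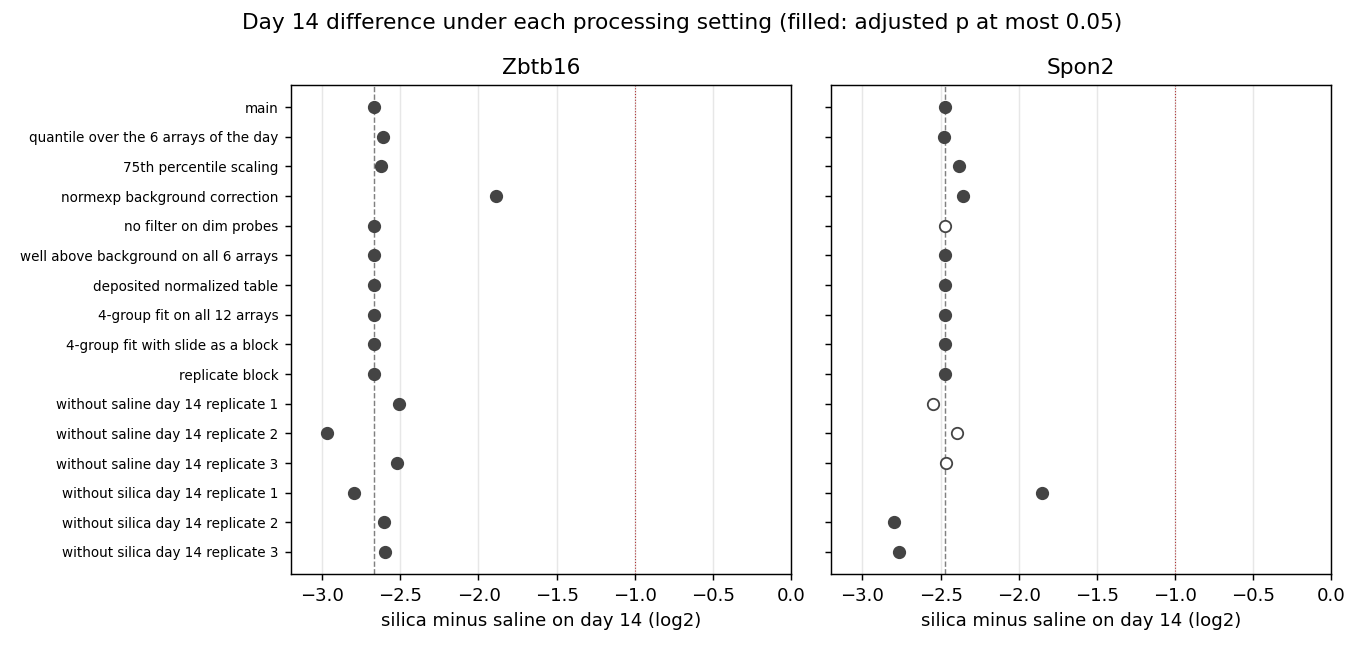
Silica minus saline difference on day 14 (log2, horizontal axis) of Zbtb16 (left) and Spon2 (right) under each processing setting and with each array left out, filled where the adjusted p is at most 0.05; the dashed line is the reported value and the dotted line a 2-fold fall. Zbtb16 stays filled under every setting shown and is closest to 0 at -1.89 with normexp correction, while Spon2 is open when dim probes are kept or a saline array is left out.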

How the data were processed

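RNA of 12 rat lungs was hybridized to Agilent single-colour (Cy3) arrays, 1 array a rat. The authors deposited the processed spot intensity of each array from Agilent Feature Extraction 10.7.1.1, corrected for background but not normalized between arrays, and a log2 table that the authors had quantile normalized in GeneSpring, used here as an alternative. Control spots (1439 of 62972) and outliers were dropped and each probe's spots averaged. The log2 intensities of the 12 arrays were quantile normalized together. Probes well above background on all 3 arrays of a group compared were kept. Silica was compared with saline on day 14 with limma 3.58.1 in R 4.3.3 (lmFit, eBayes) and Benjamini-Hochberg adjustment; probes were called at a fold change of 2 or more with an adjusted p up to 0.05. On simulated data for day 14 over 33615 probes, 84% of 200 probes changed by 2 on the log2 scale were recovered. Plots were drawn in Python with matplotlib.

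Gene names came only from the study's table of differentially expressed genes, whose own comparison columns were not used. The 1279 of its 2275 rows that were read named 1097 genes, and 4 rows whose symbols had turned into dates were left out. A gene without a named probe may still stand in the rows not read. Of the accessions, 1050 matched RefSeq. The members, gene lists and tests were chosen with earlier results of these data known. Named were both members, the 5 named genes nearest to each, and up to 6 genes a list (at most 3 with the largest differences in each direction where a list was longer), the brightest probe standing for a gene. The number of arrays limits the precision. Other normalizations, filters, normexp background correction with an offset of 50, slide and replicate blocks, and leaving out each array were tried.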

Additional observations from a re-analysis of the deposited data

How the results depend on the processing

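Zbtb16 stayed lower in silica on day 14 and called under all 9 other settings and with each array left out. Its log2 fold change was -2.67 to -1.89 over the settings (adjusted p 0.0012 to 0.0373) and -2.97 to -2.51 with an array left out (adjusted p 0.00838 to 0.033). Spon2 stayed lower throughout, at -2.48 to -2.36 over the settings and -2.80 to -1.85 with an array left out. It was no longer called without a filter on dim probes, at -2.47 with an adjusted p of 0.0903, or without any 1 saline array. The number of probes called on day 14, 1678, became 703 with normexp correction, 454 without the filter and 335 to 2400 with an array left out, lowest without saline replicate 3. Of the listed genes, 16 were called, 6 without the filter and 5 to 21 with an array left out. On day 28, 3065 probes were called, and 1299 with normexp correction. The day 28 differences of both members kept their sign under all settings, at -2.92 to -2.34 for Zbtb16 and -2.23 to -1.42 for Spon2. Normexp correction here added an offset of 50 to each intensity, which by arithmetic narrows the log2 differences of weak signals. How much of its shifts came from the offset was not tested, nor was the cause of the other shifts. Replicate numbers were not taken as pairs. Deviations of same-numbered arrays correlated at -0.17 to 0.06, which does not settle whether the samples were matched. With the replicate block 1620 probes were called on day 14 and 2832 on day 28. On day 14 the limma adjusted p with this block was 0.00617 for Zbtb16 and 0.0227 for Spon2. The fall of Zbtb16 on day 14 was -2.67 as reported and -1.89 with normexp. That setting also started from the mean spot signal and added the offset, and these changes were not told apart.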
